A study of Homo sapiens with 132 samples.

Results

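The genes of prostaglandin synthesis and prostaglandin reception were followed through 4 gastric cancer cell lines. The 9 members were taken by symbol from the 65217 Ensembl gene identifiers of the count files. They are the phospholipase gene PLA2G4A, the cyclooxygenase genes PTGS1 and PTGS2, the prostaglandin E synthase genes PTGES, PTGES2 and PTGES3, the breakdown gene HPGD and the receptor genes PTGER2 and PTGER4. MKN1, MKN7, NCI-N87 and Hs746T are established lines grown from metastases of gastric carcinomas. MKN1 and Hs746T cells were left untreated or were given EGF (5 ng/ml), cetuximab (1 µg/ml), EGF together with cetuximab, trastuzumab (5 µg/ml), afatinib (0.5 µM), or trastuzumab together with afatinib. For MKN7 and NCI-N87 the conditions were no treatment, trastuzumab, afatinib or both drugs. EGF is the ligand of the receptor EGFR, cetuximab is an antibody against EGFR, trastuzumab is an antibody against HER2, and afatinib inhibits the kinases of the ErbB receptors. RNA was taken after 4 h and 24 h, with 3 libraries for each of the 44 conditions. Untreated cells were the control of each treatment, also of afatinib, and treatments of the same line and time point share these controls. The paper names DMSO as the solvent control of afatinib. The samples hold no group with DMSO alone, so effects of afatinib and of its solvent cannot be told apart here.

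The libraries held 25832557 to 69434151 counts, with a median of 50725775. Levels are given as CPM, counts scaled by TMM to a library of 1000000 counts, and a floor of 3 counts corresponds to 0.0432 CPM in the deepest and 0.116 CPM in the shallowest library, which covers counting error only. In edgeR's quasi-likelihood test, a gene rose or fell where the Benjamini-Hochberg adjusted p over all genes tested was below 0.05, and it was called regulated where its log2 fold change (log2FC) was also above 1 or below -1, the criteria of the study. In Hs746T cells 8 members could be tested, since PTGER2 was filtered out for low counts, and in the other lines all 9. Same-numbered replicates deviated together in 34 of the 36 treatment comparisons, so a fit with the replicate number within each line and time point as a block (the replicate block) is given beside the treatment effects described here whose call it changed. Over these 34 comparisons, 54 of 294 pairs of member and comparison passed the adjusted p without and 75 with the block, and 0 of the 21 gained were regulated. Of 10 target genes of the MAPK pathway, 8 or 9 fell more than 2-fold after afatinib in MKN1, MKN7 and NCI-N87 cells at each time point, 6 rose that far after EGF in MKN1 cells, and 0 were regulated in Hs746T cells. The keratin genes KRT8, KRT18 and KRT19 and the mesenchymal gene FN1 were expressed in all 4 lines. The epithelial cadherin gene CDH1 was at 0.821 CPM in Hs746T and 2.02 CPM in MKN1 cells, beside 260 CPM in MKN7 and 268 CPM in NCI-N87 cells. The mesenchymal gene VIM was at 1590 and 468 CPM in Hs746T and MKN1 cells, and at 6.17 and 5.95 CPM in MKN7 and NCI-N87 cells. Another mesenchymal gene, CDH2, was at 85.2 CPM in Hs746T and 0.428 CPM in MKN1 cells.

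Prostaglandins are lipid signals made from arachidonic acid. Cytosolic phospholipase A2, the product of PLA2G4A, cuts arachidonic acid from membrane lipids, and the cyclooxygenases turn it into prostaglandin H2. PTGS1 is the mostly constant cyclooxygenase, while PTGS2 (COX-2) is an immediate early gene that growth factors and inflammatory signals induce. The E synthases make prostaglandin E2 from prostaglandin H2, HPGD oxidises prostaglandin E2 to an inactive form, and the receptors EP2 (PTGER2) and EP4 (PTGER4) pass its signal on through cyclic AMP. In the stomach prostaglandin E2 protects the mucosa, and COX-2 is often raised in gastric cancer.

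In hg38 coordinates, PTGS2 (ENSG00000073756) lies at chr1:186671791-186680427 on the minus strand and PLA2G4A (ENSG00000116711) at chr1:186828953-186988981 on the plus strand, 148.5 kb apart. PTGES (ENSG00000148344) at chr9:129738331-129753047 and PTGES2 (ENSG00000148334) at chr9:128120693-128128462 lie on the minus strand of chromosome 9, which also holds PTGS1 (ENSG00000095303) at chr9:122370530-122395703. PTGES3 (ENSG00000110958) is at chr12:56663341-56688408, HPGD (ENSG00000164120) at chr4:174490177-174523154, PTGER2 (ENSG00000125384) at chr14:52314305-52328606 and PTGER4 (ENSG00000171522) at chr5:40679498-40693735. All 9 are annotated as protein coding.

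PTGER2 and PTGS2 had the widest changes among the members at 4 h, so the 250 bases before their RefSeq start (GRCh38.p14) are shown, read 5′ to 3′ along the gene. The PTGS2 window is chr1:186680424-186680673 on the minus strand and the PTGER2 window is chr14:52314062-52314311 on the plus strand. Capitals mark every match to TATAAA (the TATA box) or TGACG (the core of a cyclic AMP response element), to GGGCGG (a GC box), TTNNGNAA (a C/EBP core) or TGANTCA (an AP-1 site) on either strand.
PTGS2: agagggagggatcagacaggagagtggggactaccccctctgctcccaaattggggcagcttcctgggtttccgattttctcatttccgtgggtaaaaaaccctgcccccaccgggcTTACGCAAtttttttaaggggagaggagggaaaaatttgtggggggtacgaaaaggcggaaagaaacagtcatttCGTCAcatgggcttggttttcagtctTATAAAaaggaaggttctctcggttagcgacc
PTGER2: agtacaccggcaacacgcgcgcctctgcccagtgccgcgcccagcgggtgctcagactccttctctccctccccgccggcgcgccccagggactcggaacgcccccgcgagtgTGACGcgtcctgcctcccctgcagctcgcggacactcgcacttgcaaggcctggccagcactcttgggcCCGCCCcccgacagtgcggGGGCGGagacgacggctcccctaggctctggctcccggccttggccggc

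The PTGS2 window holds TATAAA from -32 to -27 relative to the start, TGACG on the other strand from -58 to -54 and a C/EBP core from -133 to -126, and no GC box. The PTGER2 window holds TGACG from -137 to -133 and a GC box at -68 and at -49, and no TATAAA. Over 35114 promoters of the same length, 10.7% held TATAAA, 21.2% TGACG, 42.6% GGGCGG, 33.2% TTNNGNAA and 6.57% TGANTCA. These matches describe the letters and do not show that a factor binds. PTGS2 also stood out by the pentamer ATTTA, a core of AU-rich elements in short-lived mRNAs. The 3′ UTR of its annotated transcript with the longest coding part holds the pentamer 22 times. The median over 17301 genes was 1, and 1.86% of them reached the count of PTGS2. The 30 bases after the stop codon of PTGS2 (chr1:186674323-186674352, minus strand, GRCh38) hold 3 overlapping copies, marked in capitals.
PTGS2 after the stop codon: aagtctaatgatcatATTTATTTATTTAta

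In untreated cells PTGES2 and PTGES3 were high in all 4 lines, and the cyclooxygenase PTGS2 was low in all of them. Over exon length, the mean level of PTGES3 (the cochaperone p23) was 109 to 195 CPM per kb across the 4 lines, and that of PTGES2 was 37.5 to 74.9 CPM per kb. PTGES, the inducible microsomal synthase, reached 216 CPM per kb in MKN1 cells and 1.77 CPM per kb in Hs746T cells. The mean of PTGS2 stayed between 1.07 and 3.24 CPM per kb in the same comparison, below that of PTGES in each line. In Hs746T cells the libraries of PTGS2 (1.06 to 1.86 CPM per kb) and PTGES (1.06 to 2.63 CPM per kb) overlapped.

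**Figure D1:**
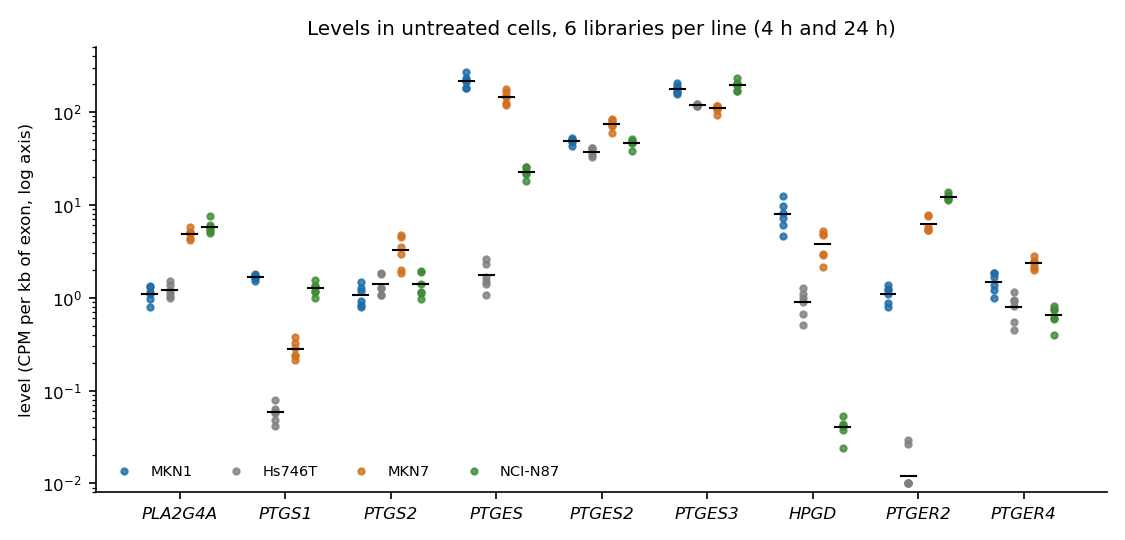
Level of each member in the untreated libraries of the 4 cell lines, in CPM per kb of exon on a log axis (6 libraries a line, 3 at 4 h and 3 at 24 h). Values at or below 0.01 CPM per kb are drawn at 0.01. PTGES spans 1.77 to 216 CPM per kb in the line means, while PTGES2 spans 37.5 to 74.9.

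The lines differed most in PTGES, HPGD, PTGER2 and PTGS1. PTGES had a lowest, median and highest value of 341, 411 and 505 CPM over the 6 untreated MKN1 libraries, of 223, 278 and 335 CPM in MKN7 cells, of 34.6, 42.6 and 48.1 CPM in NCI-N87 cells and of 2.01, 3.03 and 4.98 CPM in Hs746T cells. The MKN1 mean was 122-fold that of Hs746T, and the ranges of the 4 lines did not overlap, although MKN1 and MKN7 were not told apart at 24 h (log2FC 0.36, edgeR adjusted p = 0.139). HPGD, the gene that ends the prostaglandin signal, had 25.4, 42 and 68.5 CPM in MKN1 cells, 11.8, 21.1 and 28.6 CPM in MKN7 cells, 2.82, 5.27 and 7.01 CPM in Hs746T cells and 0.133, 0.231 and 0.292 CPM in NCI-N87 cells. Only MKN1 and MKN7 overlapped, and the NCI-N87 level was near the floor.

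PTGER2, the EP2 receptor gene, was highest in NCI-N87 cells. It was at 28, 29.5 and 33.7 CPM in NCI-N87 cells, at 13.2, 13.8 and 19 CPM in MKN7 cells and at 1.96, 2.87 and 3.35 CPM in MKN1 cells. In Hs746T cells it did not exceed 0.073 CPM in untreated libraries, and over all 42 libraries of that line 16 had 0 counts and the highest had 15. PTGS1 was at 9.72 ± 0.642 CPM in MKN1 cells (SD, n = 6), at 7.27 ± 1.09 CPM in NCI-N87 cells, at 1.62 ± 0.355 CPM in MKN7 cells and at 0.336 ± 0.0746 CPM in Hs746T cells. MKN1 and NCI-N87 did not differ in PTGS1 beyond their spread at 4 h (log2FC 0.29, edgeR adjusted p = 0.157), and at 24 h the difference was 0.56 (adjusted p = 0.00542).

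The other 5 members were closer between the lines. PTGS2 averaged 17.1 ± 6.29 CPM in MKN7 cells, 7.43 ± 2.22 CPM in NCI-N87 cells, 7.32 ± 1.87 CPM in Hs746T cells and 5.66 ± 1.45 CPM in MKN1 cells (SD, n = 6). MKN7 was higher than each of the others at both time points, with log2FC values of 1.13 and 1.29 over NCI-N87 cells, and of -1.62 and -1.57 for MKN1 and -1.33 and -1.08 for Hs746T against MKN7 cells (edgeR adjusted p at most 0.00145). The other 3 lines were not told apart (adjusted p from 0.163 to 0.579). PLA2G4A was at 16.7 ± 2.61 CPM in NCI-N87 and 14.1 ± 1.6 CPM in MKN7 cells, which were not told apart (adjusted p = 0.379 at 4 h and 0.0784 at 24 h), and at 3.46 ± 0.57 CPM in Hs746T and 3.17 ± 0.573 CPM in MKN1 cells, which were not told apart either (adjusted p = 0.712 and 0.338). PTGER4 averaged 9.28 CPM in MKN7, 5.9 CPM in MKN1, 3.18 CPM in Hs746T and 2.57 CPM in NCI-N87 cells. The neighbours MKN7 and MKN1 (adjusted p = 0.0827 at 4 h), MKN1 and Hs746T (0.218 at 24 h) and Hs746T and NCI-N87 (0.273 at 4 h) each differed in PTGER4 at one time point and not at the other. PTGES2 and PTGES3 varied least, with 1.99-fold and 1.79-fold between the highest and lowest line means.

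Between untreated lines, 65 of 108 pairs of member and comparison passed the criteria. At 4 h these were 5 of 9 members for MKN1 against Hs746T (46% of all genes tested), 5 for MKN1 against MKN7 (38.4%), 5 for MKN1 against NCI-N87 (43.8%), 8 for Hs746T against MKN7 (43%), 5 for Hs746T against NCI-N87 (46.4%) and 6 for MKN7 against NCI-N87 (41.4%). At 24 h they were 4 (45.3%), 4 (40.2%), 5 (43.7%), 7 (43.9%), 5 (46.7%) and 6 (42.3%) in the same order. Most of these shares lie near the share of all genes, so a large part of the genes separates these lines. Hs746T cells stood lower than MKN7 cells in each of the 8 and 7 members called.

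Between 24 h and 4 h of untreated culture, 0 members were regulated in any line in edgeR, and the shares of all genes were 8.06% (MKN1), 1.76% (MKN7), 0.0472% (NCI-N87) and 0.129% (Hs746T). At an unadjusted p below 0.05, 7 of 35 pairs of member and line differed. Of all genes tested, 8472 of 19815 in MKN1 and 5619 of 18483 in MKN7 cells had such a p. In NCI-N87 cells 1793 of 19078 genes had it, and in Hs746T cells 1930 of 18667. In MKN7 cells HPGD rose from 16.2, 16 and 11.8 CPM at 4 h to 26.8, 28.6 and 26 CPM at 24 h without any treatment (log2FC 0.86, adjusted p = 2.55e-05). In MKN1 cells PTGER4 fell by 0.62 on the log2 scale (adjusted p = 0.00193) and PTGER2 by 0.49 (adjusted p = 0.0184) over the same interval.

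Under treatment, 27 of 312 pairs of member and comparison were regulated, 24 of them lower. Afatinib and its combination with trastuzumab gave 26 of them, and EGF in MKN1 cells gave 1. After afatinib in NCI-N87 cells, 1 of 9 members was regulated at 4 h (3.24% of all genes) and 6 at 24 h (29.6%), 5 lower and 1 higher. In MKN7 cells 1 of 9 was regulated at 4 h (3.4%) and 3 at 24 h (13.5%), and in MKN1 cells 2 at 4 h (0.681%) and 0 at 24 h (4.19%). With trastuzumab added, the counts of members were the same, against 3.01% and 31.6% of all genes in NCI-N87, 3.71% and 13.9% in MKN7 and 0.727% and 4.24% in MKN1 cells. The median log2FC of the 9 members after 24 h of afatinib was -1.05 in NCI-N87 cells and -0.62 in MKN7 cells, beside 0.03 and 0.04 over all genes tested. In such bulk libraries, fewer cells that express a gene and less RNA per cell cannot be told apart.

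**Figure D2:**
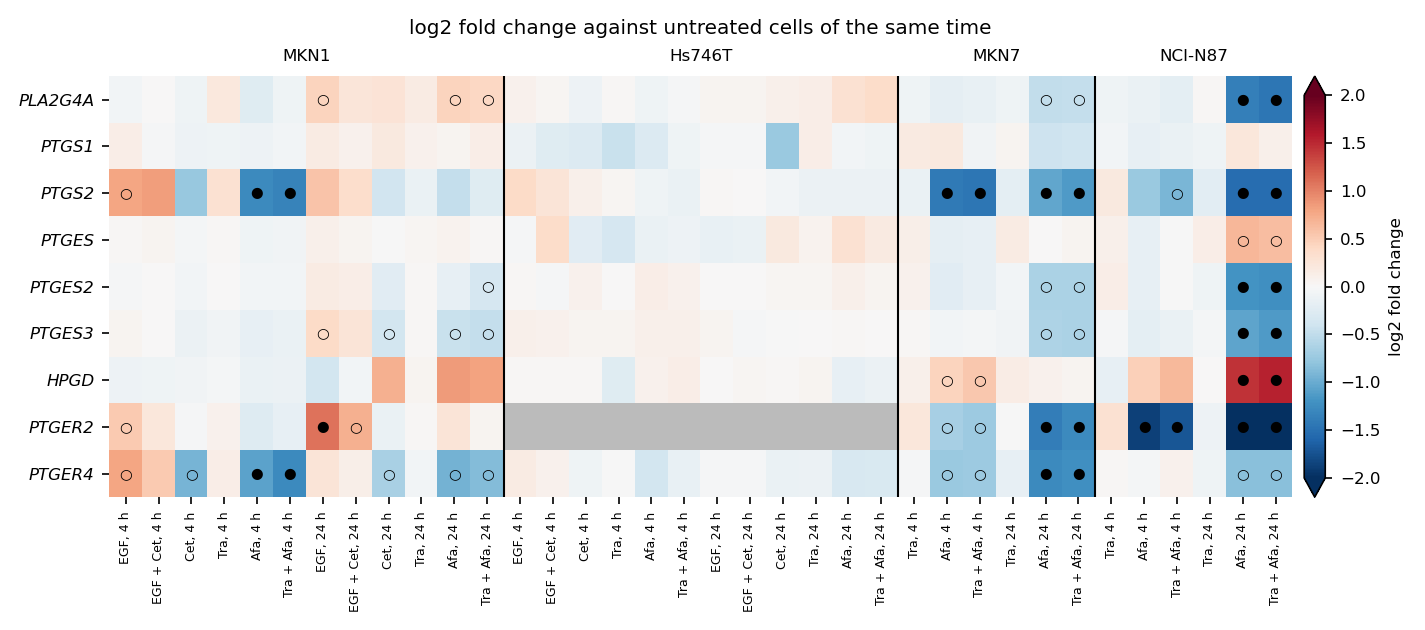
Log2 fold change against untreated cells of the same line and time point for each member (rows) and each treatment (columns; Cet, cetuximab, Tra, trastuzumab, Afa, afatinib), from edgeR, with colours that stop at 2 in either direction. Filled circles mark regulated members, open circles mark members with an adjusted p below 0.05 only, and grey cells were not tested. The darkest cells are those of PTGER2 in NCI-N87 cells after 24 h of afatinib, at -4.0 and with trastuzumab at -4.02.

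PTGS2 fell after afatinib in MKN1, MKN7 and NCI-N87 cells. It passed the criteria at 4 h in MKN1 and MKN7 cells and at 24 h in MKN7 and NCI-N87 cells. Without the replicate block, the effects at 24 h and 4 h were not told apart in these lines (edgeR adjusted p = 0.262, 0.615 and 0.133). In MKN7 cells at 4 h it had 18.5, 15.6 and 23.5 CPM without treatment and 7.99, 8.09 and 6.01 CPM with afatinib. These libraries did not overlap, and the fall was 2.68-fold (log2FC -1.42, SE 0.32, edgeR adjusted p = 0.00271). At 24 h the untreated values were 10.6, 9.78 and 24.6 CPM and the afatinib values 6.33, 6.46 and 9.19 CPM (log2FC -1.04, adjusted p = 0.00957). The third untreated library stood above the others, and the call did not hold without replicate 3 (log2FC -0.7), in the replicate block (log2FC -0.96) or with library size scaling (log2FC -0.91), each under 2-fold.

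In MKN1 cells PTGS2 at 4 h went from 4.86, 6.14 and 7.79 CPM to 2.49, 2.4 and 2.9 CPM with afatinib. This was a 2.43-fold fall (log2FC -1.28, SE 0.26, adjusted p = 0.00219), which did not hold without replicate 2 (adjusted p = 0.118). At 24 h the untreated libraries had 4.15, 4.34 and 6.7 CPM and those with afatinib 3.3, 2.95 and 4.86 CPM, which overlap (log2FC -0.47, adjusted p = 0.182, and 0.0295 in the replicate block). The effects at 24 h and 4 h were not told apart (difference 0.81, SE 0.36, adjusted p = 0.262, and 0.0244 in the replicate block).

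In NCI-N87 cells the later fall of PTGS2 passed the criteria. At 4 h it had 10.2, 10.1 and 5.99 CPM untreated and 5.38, 4.94 and 5.23 CPM with afatinib (log2FC -0.75, adjusted p = 0.0598, and 0.000183 in the replicate block). At 24 h it had 7.37, 5.07 and 5.9 CPM untreated and 3.14, 1.37 and 1.98 CPM with afatinib, a 2.88-fold fall without overlap (log2FC -1.53, SE 0.29, adjusted p = 8.82e-05). The difference between the effects was -0.78 (SE 0.39, adjusted p = 0.133, and 0.00179 in the replicate block). PTGS2 is on a list of motility genes that the study chose on these libraries, so its fall after afatinib is not independent evidence of that list's direction. PTGS1, the constant cyclooxygenase, was regulated in 0 of the 36 treatment comparisons in edgeR, in DESeq2 and in the replicate block, and it had an unadjusted p below 0.05 in 0 of them. With afatinib its level went from 1.65 to 1.24 CPM in MKN7 cells at 24 h (log2FC -0.42, adjusted p = 0.201, and 0.0128 in the replicate block) and from 6.71 to 8.06 CPM in NCI-N87 cells (log2FC 0.23, adjusted p = 0.256, and 0.0159 in the replicate block).

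**Figure D3:**
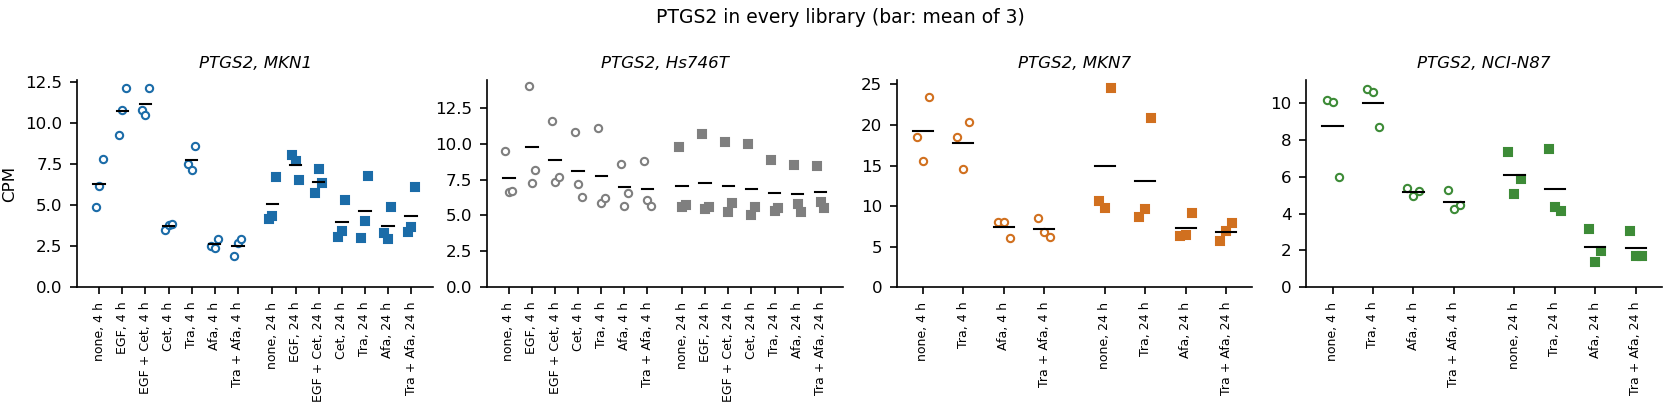
PTGS2 level in each library in CPM, by cell line and treatment, with open circles for 4 h, squares for 24 h and a bar at the mean of 3 libraries. In MKN7 cells at 4 h the afatinib libraries (6.01 to 8.09 CPM) lie below the untreated ones (15.6 to 23.5 CPM), and in Hs746T cells the libraries of all treatments overlap the untreated ones.

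The receptor gene PTGER2 showed the widest change of any member. In NCI-N87 cells at 4 h it had 28.9, 28.5 and 30.01 CPM untreated and 7.52, 7.53 and 8.99 CPM with afatinib (3.63-fold lower, log2FC -1.86, SE 0.11, adjusted p = 2.56e-10). At 24 h it had 28, 31.4 and 33.7 CPM untreated and 1.96, 1.99 and 1.98 CPM with afatinib, a 16-fold fall (log2FC -4.0, SE 0.13, adjusted p = 1.28e-15). Neither time point showed overlap, and both calls held in all 9 alternatives. With trastuzumab added, the values were 8.89, 8.75 and 9.13 CPM at 4 h and 1.99, 1.72 and 2.15 CPM at 24 h.

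In MKN7 cells PTGER2 fell less. Its effects at 24 h and 4 h there differed by -0.72 (SE 0.27, adjusted p = 0.069, and 4.61e-05 in the replicate block). At 4 h it had 19, 13.3 and 13.3 CPM untreated and 12, 8.34 and 9.37 CPM with afatinib (log2FC -0.66, SE 0.19, adjusted p = 0.0158). At 24 h it had 14.2, 13.2 and 18.8 CPM untreated and 5.56, 6.01 and 6.26 CPM with afatinib (log2FC -1.38, SE 0.2, adjusted p = 5.88e-06). The groups overlapped at neither time point, and only the later fall passed 2-fold. In MKN1 cells afatinib left PTGER2 at 2.66 CPM at 4 h beside 3.16 CPM untreated (adjusted p = 0.484) and at 2.75 CPM at 24 h beside 2.27 CPM (adjusted p = 0.267).

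PTGER4 fell after afatinib in the same 3 lines. In MKN1 cells at 4 h it had 7.29, 7.37 and 6.65 CPM untreated and 3.36, 3.88 and 2.99 CPM with afatinib (log2FC -1.07, SE 0.16, adjusted p = 2.37e-05), and with library size scaling the fall came just under 2-fold (log2FC -0.98). At 24 h it had 4.74, 3.96 and 5.41 CPM untreated and 2.27, 2.41 and 2.74 CPM with afatinib (log2FC -0.94, adjusted p = 4.57e-05). In MKN7 cells at 4 h it fell from a mean of 9.39 to 5.72 CPM (log2FC -0.75, SE 0.15, adjusted p = 0.00102). At 24 h it had 7.95, 9.66 and 9.94 CPM untreated there and 3.07, 3.96 and 4.45 CPM with afatinib (log2FC -1.27, SE 0.16, adjusted p = 1.07e-06). None of these groups overlapped.

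In NCI-N87 cells PTGER4 was at 2.92, 2.99 and 3.21 CPM untreated and 2.98, 2.8 and 3.07 CPM with afatinib at 4 h (adjusted p = 0.912), and at 24 h it fell from 2.39, 1.58 and 2.32 CPM to 1.4, 1.05 and 1.15 CPM (log2FC -0.84, adjusted p = 9.24e-05). The body of PTGER4 lies within TTC33, a gene on the opposite strand whose counts were 357% of those of PTGER4, and the strand setting of the counting is not given in the sources used here. TTC33 did not fall in these comparisons. Its log2FC after afatinib was 0.25 in MKN1 cells at 4 h (adjusted p = 0.0823), 0.32 in MKN7 cells at 24 h and 0.67 in NCI-N87 cells at 24 h.

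**Figure D4:**
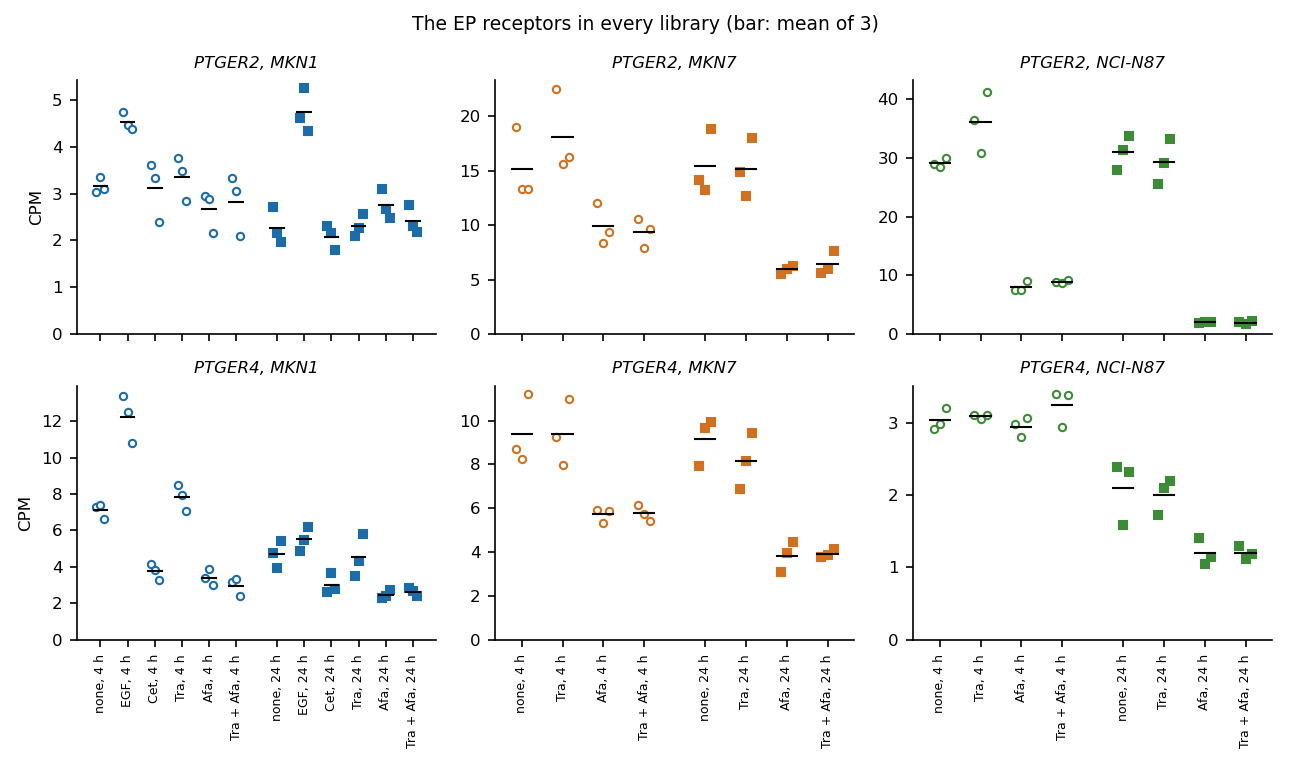
PTGER2 and PTGER4 levels in each library in CPM in MKN1, MKN7 and NCI-N87 cells, with open circles for 4 h, squares for 24 h and a bar at the mean of 3 libraries. PTGER2 in NCI-N87 cells steps down from 28.5 to 30.01 CPM untreated to 7.52 to 8.99 CPM after 4 h of afatinib, and lies at 1.96 to 1.99 CPM after 24 h.

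At the entry of the pathway, PLA2G4A fell after 24 h of afatinib in NCI-N87 cells from 21.6, 15.6 and 17.3 CPM to 8.0, 6.61 and 6.89 CPM, without overlap (2.59-fold, log2FC -1.37, SE 0.15, adjusted p = 4.78e-08). At 4 h it was still at 15.2, 12.2 and 14 CPM beside 16.5, 14.3 and 15 CPM untreated (adjusted p = 0.589). In MKN7 cells at 24 h it fell by 0.49 on the log2 scale (adjusted p = 0.00305). In MKN1 cells it rose at 24 h instead, from a mean of 2.95 to 4.06 CPM (log2FC 0.44, adjusted p = 0.0196).

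Of the E synthases, PTGES2 and PTGES3 fell after 24 h of afatinib in NCI-N87 and MKN7 cells. In NCI-N87 cells at 24 h, PTGES2, a membrane-associated synthase, had 141, 148 and 149 CPM untreated and 61.3, 61.9 and 73.6 CPM with afatinib (2.28-fold lower, log2FC -1.19, SE 0.1, adjusted p = 1.2e-09). PTGES3 had 579, 577 and 684 CPM untreated and 267, 291 and 354 CPM with afatinib (2.06-fold lower, log2FC -1.05, SE 0.14, adjusted p = 1.4e-06). Neither pair of groups overlapped. Both log2FC came under 2-fold when libraries were scaled by size alone (-0.93 for PTGES2 and -0.79 for PTGES3), a scaling that moved the median log2FC of all genes in this comparison by 0.26, and that of PTGES3 was also above -1 without replicate 1. PTGES, in contrast, rose from 41.4, 34.6 and 40.9 CPM to 63.1, 58.3 and 67.8 CPM (log2FC 0.66, SE 0.12, adjusted p = 5.57e-05), less than 2-fold and without overlap.

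In MKN7 cells at 24 h PTGES2 fell from 221, 181 and 243 CPM to 145, 127 and 146 CPM (log2FC -0.63, adjusted p = 0.000149) and PTGES3 from 371, 389 and 399 CPM to 245, 259 and 253 CPM (log2FC -0.62, adjusted p = 5.62e-07). PTGES stayed at a mean of 298 CPM beside 294 CPM untreated (adjusted p = 0.949). At 4 h PTGES2 and PTGES passed the test in MKN7 cells in the replicate block only, with log2FC values of -0.23 (adjusted p = 0.00169) and -0.18 (adjusted p = 0.00326), and so did PTGES3 (-0.2, adjusted p = 0.0167) and PTGES (-0.18, adjusted p = 0.0356) in NCI-N87 cells. In MKN1 cells at 24 h PTGES3 fell from a mean of 546 to 408 CPM (log2FC -0.44, adjusted p = 0.000904). The difference in PTGES2 was -0.17 on the log2 scale (adjusted p = 0.264).

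The HPGD calls in MKN1 cells depended on the pairing of the replicates. In MKN1 cells at 24 h it had 44.6, 39.4 and 68.5 CPM untreated and 77.7, 66.2 and 135 CPM with afatinib. The groups overlapped and the difference did not pass the test (log2FC 0.85, SE 0.41, adjusted p = 0.127). The library numbered 3 was the highest in all 14 MKN1 conditions, and within numbers afatinib stood 1.74-fold, 1.68-fold and 1.98-fold above untreated cells. In the replicate block HPGD rose with afatinib (log2FC 0.83, adjusted p = 3.07e-08), and with EGF at 24 h it fell by 0.36 on the log2 scale (adjusted p = 0.00269, and 0.523 without the block). With cetuximab it had 69.8, 57.8 and 125 CPM at 24 h (log2FC 0.71, adjusted p = 0.285 without the block). For HPGD each of these libraries stood above the untreated library of its number. In this comparison the deviations of same-numbered libraries did not all correlate above 0.1, so no result of the replicate block is given.

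In NCI-N87 cells HPGD was near the floor. It had 0.292, 0.232 and 0.133 CPM untreated and 0.839, 0.391 and 0.623 CPM with 24 h of afatinib (log2FC 1.45, SE 0.45, adjusted p = 0.00845), and the call did not hold without replicate 3 (adjusted p = 0.12). In MKN7 cells HPGD rose at 4 h from 16.2, 16 and 11.8 CPM to 19.96, 20.6 and 20.6 CPM (log2FC 0.44, adjusted p = 0.00217). At 24 h it was at 27.6, 27.2 and 32.4 CPM beside 26.8, 28.6 and 26 CPM (adjusted p = 0.444).

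**Figure D5:**
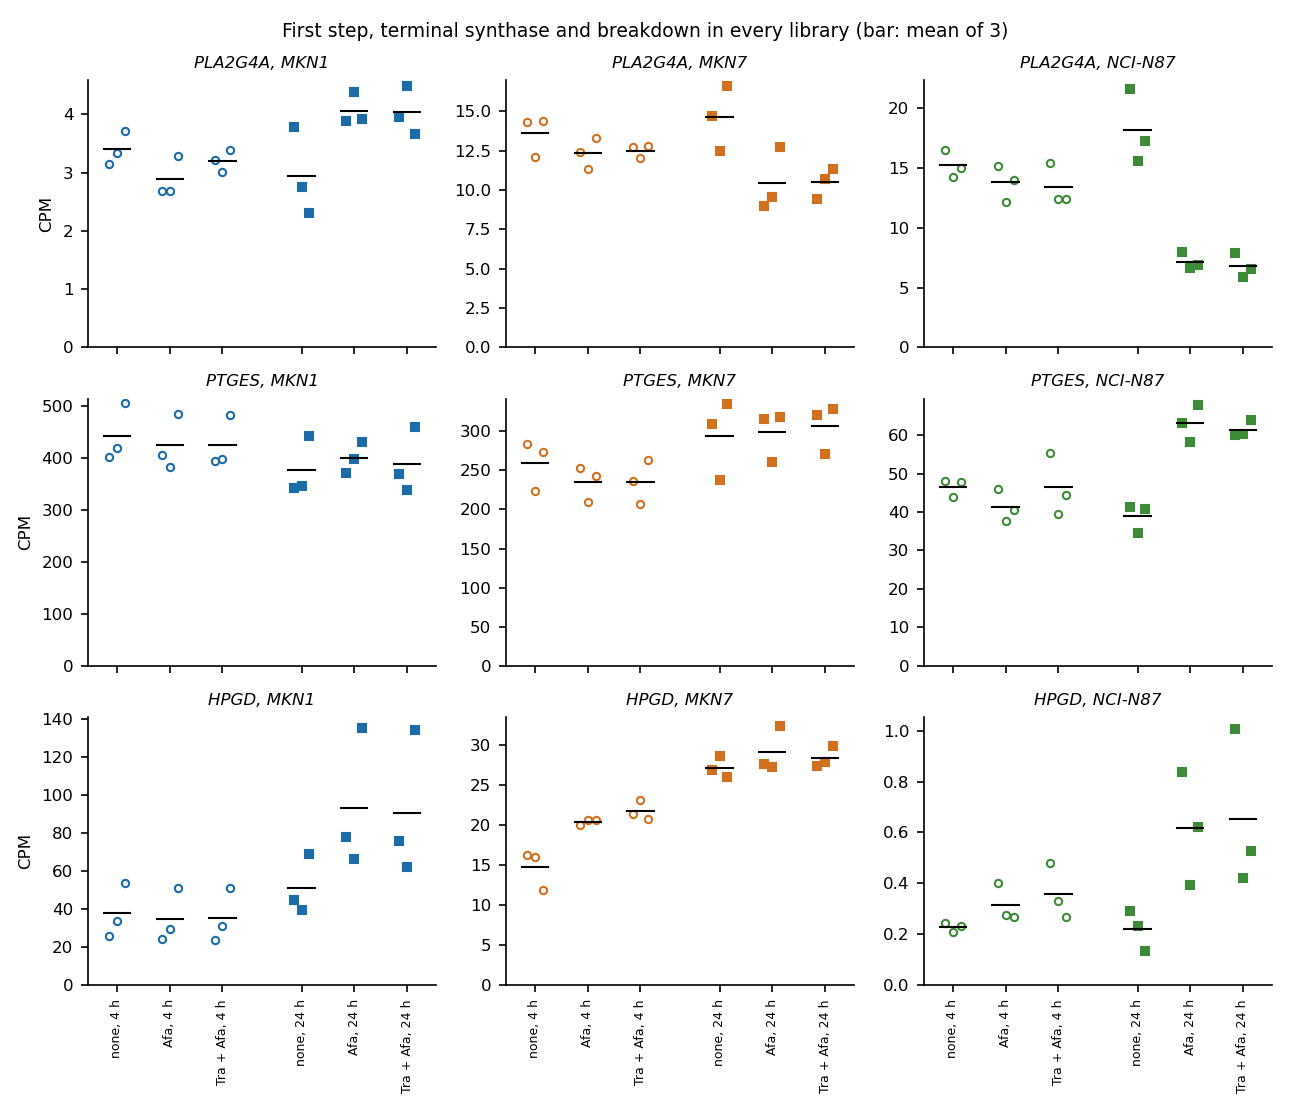
PLA2G4A, PTGES and HPGD levels in each library in CPM in MKN1, MKN7 and NCI-N87 cells, with open circles for 4 h, squares for 24 h and a bar at the mean of 3 libraries. PLA2G4A in NCI-N87 cells drops from 15.6 to 21.6 CPM untreated to 6.61 to 8.0 CPM after 24 h of afatinib, and HPGD in MKN1 cells spreads from 66.2 to 135 CPM there.

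In MKN1 cells the inducible cyclooxygenase and both receptors rose with EGF at 4 h. PTGS2 at 4 h had 9.29, 10.8 and 12.1 CPM with EGF beside 4.86, 6.14 and 7.79 CPM untreated (log2FC 0.79, adjusted p = 0.0446). PTGER4 rose at 4 h to 13.4, 12.5 and 10.8 CPM from 7.29, 7.37 and 6.65 CPM (log2FC 0.79, SE 0.15, adjusted p = 0.000445). PTGER2 rose at 4 h from 3.03, 3.35 and 3.09 CPM to 4.75, 4.47 and 4.38 CPM (log2FC 0.53, adjusted p = 0.0339). These groups did not overlap, and none of these changes reached 2-fold.

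At 24 h with EGF, PTGER2 had 4.61, 5.25 and 4.34 CPM beside 2.71, 2.15 and 1.96 CPM untreated. It was the single regulated member (log2FC 1.08, SE 0.16, adjusted p = 3.36e-06), and it came under 2-fold with library size scaling (log2FC 0.87) and without replicate 2. PTGS2 at 24 h had 8.05, 7.69 and 6.51 CPM and overlapped the untreated libraries (log2FC 0.57, adjusted p = 0.0699, and 0.00206 in the replicate block). PLA2G4A rose by a log2FC of 0.45 (adjusted p = 0.0129) and PTGES3 by 0.39 (adjusted p = 0.00177) at 24 h. The share of all genes regulated by EGF was 1.48% at 4 h, where 0 of 9 members were called, and 8.36% at 24 h, where 1 was.

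Cetuximab alone lowered PTGER4 in MKN1 cells, to 4.18, 3.85 and 3.25 CPM at 4 h (log2FC -0.93, SE 0.16, adjusted p = 0.000411), and by 0.65 on the log2 scale at 24 h (adjusted p = 0.00645). PTGS2 had 3.46, 3.76 and 3.86 CPM at 4 h, below each untreated library (log2FC -0.76, adjusted p = 0.158, and 0.00482 in the replicate block). PTGES3 fell at 24 h from a mean of 546 to 432 CPM (log2FC -0.36, adjusted p = 0.0131). With EGF and cetuximab together, PTGS2 had 10.8, 10.5 and 12.1 CPM at 4 h (log2FC 0.84 against untreated, adjusted p = 0.142, and 0.000583 in the replicate block), and PTGER2 rose at 24 h to 3.97, 3.86 and 3.28 CPM (log2FC 0.71, adjusted p = 0.002). In the replicate block PTGER4 also passed the test at 4 h (log2FC 0.54, adjusted p = 0.00198) and PTGES3 at 24 h (log2FC 0.26, adjusted p = 0.000319).

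Cetuximab alone regulated 0 of 9 members at 4 h (0.333% of all genes) and at 24 h (1.33%), and so did EGF with cetuximab (0.116% and 3.38%). Over the 7 MKN1 comparisons with EGF, cetuximab or afatinib in which edgeR called 0 members, DESeq2 also called 0, and 2 to 4 members had an unadjusted p below 0.05. Of the 19815 genes tested, 1321 to 7464 had such a p in each of these comparisons. EGF with cetuximab against EGF alone gave 0 regulated members in MKN1 cells at 4 h (0.126% of all genes) and at 24 h (0.156%). An unadjusted p below 0.05 was found for 1354 and 2046 of 19815 genes, and for 1 of 18 pairs of member and time point. That pair was PTGER2 at 24 h, whose 3.97, 3.86 and 3.28 CPM with both agents lay below the 4.61, 5.25 and 4.34 CPM with EGF, without overlap (log2FC -0.37, adjusted p = 0.391, and 0.0427 in the replicate block).

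Trastuzumab alone regulated 0 of 9 members in MKN1, MKN7 and NCI-N87 cells at both time points, and 0% of all genes, in edgeR and in DESeq2. EdgeR listed 158 to 786 genes at an unadjusted p below 0.05, and the replicate block called up to 3. In NCI-N87 cells PTGER2 at 4 h had 36.5, 30.8 and 41.3 CPM with trastuzumab beside 28.9, 28.5 and 30.01 CPM untreated, the 1 pair of 54 with an unadjusted p below 0.05. The member log2FC values lay between -0.21 and 0.31. Trastuzumab with afatinib against afatinib alone gave 0 regulated members in the 4 lines and 0% of all genes, in edgeR with and without the replicate block, with 94 to 202 genes at an unadjusted p below 0.05. None of 70 pairs had an unadjusted p below 0.05, and the log2FC values lay between -0.26 and 0.23 with standard errors from 0.07 to 0.45.

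In Hs746T cells 0 of the 8 members tested were regulated in any of the 12 treatment comparisons, nor was any gene (0%). At an unadjusted p below 0.05 edgeR listed 125 to 1371 genes and 0 of 96 pairs of member and comparison, DESeq2 called 0 genes, and the replicate block called up to 66 genes and 0 members. By the adjusted p alone, up to 3471 of the 18667 genes tested passed in the replicate block in a comparison, and 0 of the 96 pairs did. PTGS2 at 4 h had 9.52, 6.63 and 6.73 CPM untreated and 8.62, 5.69 and 6.58 CPM with afatinib. At 24 h it had 9.79, 5.58 and 5.7 CPM untreated and 8.49, 5.83 and 5.22 CPM with afatinib. The library numbered 1 was the highest in all 14 conditions for PTGS2, PLA2G4A and PTGER4, whatever the treatment.

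The effect of afatinib changed between 4 h and 24 h in NCI-N87 cells for PTGER2 (24 h minus 4 h, log2 difference -2.15, SE 0.16, edgeR adjusted p = 2.28e-09), PLA2G4A (-1.23, SE 0.2, adjusted p = 7.22e-05) and PTGES2 (-1.02, SE 0.14, adjusted p = 8e-06). These 3 of 9 members compare with 15% of all genes. PTGES (0.83, adjusted p = 0.00059), PTGES3 (-0.85, adjusted p = 0.00206) and PTGER4 (-0.8, adjusted p = 0.00653) passed the test with differences under 2-fold. For afatinib in MKN7 cells (4.67% of all genes) and for EGF (2.7%), cetuximab (0.0555%) and afatinib (0.575%) in MKN1 cells, 0 members passed the criteria, with 12 of 36 pairs at an unadjusted p below 0.05. Of all genes, 5663 of 18483 had such a p in MKN7 cells and 1561 to 4619 of 19815 in MKN1 cells. In the replicate block, the adjusted p was passed by a further 9 of 18 pairs for EGF and afatinib in MKN1 cells, 7 of 9 in MKN7 cells and 2 of 9 in NCI-N87 cells, each with a difference under 2-fold, such as PTGER2 (-0.71, adjusted p = 4.61e-05) in MKN7 cells. In Hs746T cells 0% of genes and 0 members passed for each of the 3, and 0 of 24 pairs had an unadjusted p below 0.05.

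The effect of afatinib differed between lines most for PTGER2. At 4 h its fall in NCI-N87 cells was deeper than in MKN1 cells (MKN1 minus NCI-N87, log2 difference 1.62, SE 0.33, adjusted p = 0.000919) and in MKN7 cells (1.24, SE 0.31, adjusted p = 0.0218), as 1 of 9 members in comparisons with 0.565% and 0.473% of all genes. At 24 h the differences were 4.25 for MKN1 (SE 0.35, adjusted p = 1.66e-18) and 2.6 for MKN7 (SE 0.33, adjusted p = 4.25e-10). MKN1 minus MKN7 gave 1.65 (SE 0.33, adjusted p = 0.000248), where PTGER2 had fallen in MKN7 and had not fallen in MKN1 cells. PLA2G4A differed between MKN1 and NCI-N87 cells at 24 h by 1.8 (SE 0.24, adjusted p = 1.46e-09), where it had risen in MKN1 and fallen in NCI-N87 cells. At 24 h this made 2 of 9 members for MKN1 against NCI-N87 (13.4% of all genes), 1 for MKN7 against NCI-N87 (9.64%) and 1 for MKN1 against MKN7 (3.6%).

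Hs746T and NCI-N87 cells differed in the effect of 24 h of afatinib for 6 of 9 members (19.4% of all genes). The log2 differences were 1.38 for PTGS2 (SE 0.45, adjusted p = 0.011), 1.27 for PTGES2, 1.04 for PTGES3, 1.64 for PLA2G4A and -1.64 for HPGD (SE 0.62, adjusted p = 0.0311), of which the call for HPGD was lost without any 1 of the replicates. The value of 4.11 for PTGER2 (SE 1.32) rests on a gene with at most 15 counts in a Hs746T library. In the remaining comparisons 0 members passed the criteria, namely Hs746T with MKN1 (0.245% of all genes at 4 h and 1.34% at 24 h), with MKN7 (1.86% and 7.02%) and with NCI-N87 at 4 h (2.16%), MKN1 with MKN7 at 4 h (0.473%), and MKN1 with Hs746T for EGF (0.486% and 3.15%) and cetuximab (0.0832% and 0.158%). Over these 10 comparisons 16 of 90 pairs of member and comparison had an unadjusted p below 0.05. Of the 22832 genes tested, 1110 to 6661 had such a p in each comparison. In all, 12 pairs of member and comparison passed without and 19 with the replicate block. Among the latter, 3 for afatinib came from these 10 comparisons. They were PTGS2 at 4 h for Hs746T minus MKN7 (1.24, adjusted p = 2.04e-06, and 0.0799 without the block) and for MKN1 minus Hs746T (-1.12, adjusted p = 0.000454, and 0.346 without the block). The third was HPGD at 24 h between MKN1 and Hs746T cells.

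Other genes of the pathway were counted from lists of fixed membership. Among 15 further phospholipase and arachidonate release genes, 11 were tested in at least 1 line and 7 were regulated in at least 1 treatment comparison, each time higher. Of all genes tested, 26.4% were regulated higher in at least 1 treatment comparison and 40.1% in either direction. PLA2G10, a secreted phospholipase, went from a mean of 4.28 to 49.8 CPM after 24 h of afatinib in NCI-N87 cells (log2FC 3.51), and PLA2G6, a calcium-independent phospholipase, from 18.4 to 69.1 CPM (log2FC 1.88). PLA2G4C, a cytosolic relative of PLA2G4A, rose from 7.58 to 19.1 CPM in MKN1 and from 8.24 to 21.1 CPM in MKN7 cells at 24 h (log2FC 1.31 and 1.35). PLA2G4F rose from 0.794 to 3.05 CPM (log2FC 1.89) and PLA2G4D from 0.13 to 0.878 CPM (log2FC 2.69) after 24 h of afatinib in NCI-N87 cells. PLA2G2F in MKN7 cells with afatinib (0.429 CPM beside 0.196 CPM untreated) and PLA2G4E in NCI-N87 cells with both drugs (0.276 CPM beside 0.116 CPM) were regulated at levels near the floor.

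Among 9 other terminal synthases, 6 were tested and 2 were regulated, and here and in the lists that follow the share regulated did not exceed the 40.1% of all genes. PTGIS, the prostacyclin synthase, fell with 24 h of EGF in MKN1 cells from a mean of 243 to 52.2 CPM (log2FC -2.19) and rose to 515 CPM with trastuzumab and afatinib (log2FC 1.06), and it rose in MKN7 cells from 3.01 to 6.88 CPM with afatinib (log2FC 1.18). PTGDS rose in MKN7 cells with trastuzumab and afatinib (log2FC 1.71). Among 7 genes of breakdown and transport, 5 were tested and 2 were regulated. SLCO2A1, the prostaglandin transporter, rose with 24 h of EGF in MKN1 cells from 15.2 to 42.8 CPM (log2FC 1.52) and with afatinib in NCI-N87 cells from 0.635 to 2.86 CPM (log2FC 2.13), while ABCC4, an exporter of prostaglandins and cyclic nucleotides, fell there from 61.7 to 20.5 CPM (log2FC -1.62).

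Of 7 other prostanoid receptor genes, 5 were tested and 2 were regulated. In NCI-N87 cells at 24 h PTGER1 rose from 0.689 to 1.79 CPM with afatinib (log2FC 1.35), and PTGER3 rose from 0.0806 to 0.275 CPM with trastuzumab and afatinib (log2FC 1.68), a level near the floor. Of 13 genes of the lipoxygenase and leukotriene arm, 10 were tested and 2 were regulated. ALOX5, the 5-lipoxygenase, fell with 24 h of EGF in MKN1 cells from 4.6 to 2.06 CPM (log2FC -1.13) and rose with afatinib in NCI-N87 cells from 11.6 to 23.7 CPM (log2FC 1.0), and ALOX15 rose with afatinib in MKN7 cells from 3.42 to 7.57 CPM (log2FC 1.14).

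Over the 44 conditions, after the mean of each line was taken from the mean log2 CPM, the 5 of 15748 genes most like PTGS2 were STK40 (Pearson's r = 0.94), DUSP5 (0.93), EFNB2 (0.91), IER3 (0.91) and KLF6 (0.91). Those most like HPGD were MIR210HG (0.93), UMAD1 (0.93), BBS2 (0.93), NIT1 (0.92) and UBE3B (0.92). These correlations describe means from the same libraries and carry no test. PACERR, a noncoding RNA that starts 194 bases from PTGS2 on the opposite strand, had 3.78% of the counts of PTGS2 and was regulated in 0 of the 24 treatment comparisons in which edgeR tested it, with 1 at an unadjusted p below 0.05. PTGES3 has processed pseudogenes, of which PTGES3P1 had the most counts at 0.273% of those of PTGES3, and reads shared between them could not be told apart here.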

How the data were processed

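RNA was made into directional mRNA libraries and sequenced paired end. The submitters' processing notes name Trim Galore, STAR and hg38; the counting tool, its strand setting and its annotation are not given in the sources used here. The authors deposited raw counts per Ensembl gene for each library, without normalization, and described the 3 samples of a condition as biological replicates. Symbols, exon lengths and positions came from GENCODE release 29, and promoter sequences from RefSeq (GRCh38.p14), which held all 9 members.

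Groups were taken from the sample labels. EdgeR 4.0.16 in R 4.3.3 was used on the counts (TMM, filterByExpr with a minimum count of 10, glmQLFit and glmQLFTest with Benjamini-Hochberg adjustment), in 1 fit per cell line and 1 fit of all lines for differences between lines. No pair of replicates agreed within sampling noise. Deviations from the condition mean correlated above 0.1 in all 3 same-numbered pairs in 34 of 36 treatment comparisons, and the labels give the numbers, so they were taken to pair the samples. The 9 alternatives were the replicate block, library size scaling, a fit without the filter, a stricter filter of 10 counts in every library, leaving out each replicate, DESeq2 1.42.0 and a fit of the compared groups only. Scripts were tested on simulated data. The 9 members are all named, and genes of the other lists where they were regulated in at least 1 treatment comparison. The members and lists were chosen with earlier results of these data known. Pathway tables, phosphoprotein and phenotype measurements were not analysed here.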

Additional observations from a re-analysis of the deposited data

Results flagged for a closer look

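The effect of afatinib (log2 fold change against untreated cells) differed between time points or cell lines by more than 2-fold in an edgeR interaction contrast for 15 pairs of member and comparison. Between 24 h and 4 h in NCI-N87 cells the difference was -2.15 for PTGER2, -1.23 for PLA2G4A and -1.02 for PTGES2.

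At 4 h PTGER2 fell deepest in NCI-N87 cells, so that MKN1 minus NCI-N87 gave 1.62 and MKN7 minus NCI-N87 gave 1.24. At 24 h these differences were 4.25 and 2.6, and MKN1 minus MKN7 gave 1.65. For PLA2G4A, MKN1 minus NCI-N87 at 24 h was 1.8.

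Hs746T minus NCI-N87 at 24 h gave 1.38 for PTGS2, 1.27 for PTGES2, 1.04 for PTGES3, 1.64 for PLA2G4A, -1.64 for HPGD and 4.11 for PTGER2. The last value depends on a gene at or near 0 counts in Hs746T cells.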

How the results depend on the processing

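Of the 27 treatment calls, 15 held in every alternative and 12 were lost in at least 1, by a fold change that came under 2 or an adjusted p above the threshold, and none changed direction. With libraries scaled by size alone, the count of calls in MKN1 cells went from 5 (1 higher) to 3 (0 higher), and in NCI-N87 cells from 14 to 10. The differences between 24 h and 4 h still numbered 3, with PTGES (1.02) gained and PTGES2 (-0.83) lost in NCI-N87 cells, and in MKN7 cells the call for PTGS2 after 24 h of afatinib was lost (-0.91). That scaling moved the median log2FC of all genes by 0.31 in NCI-N87 cells with trastuzumab and afatinib at 24 h, by 0.26 there with afatinib, and by -0.2 in MKN1 cells with EGF at 24 h. The replicate block gave 7 of the 8 calls in MKN7 cells, and 19 in place of 12 differences between lines in an effect of treatment. It changed no other count of regulated members by more than 1.5 times. With at least 10 counts required in every library, 33 in place of 65 differences between untreated lines and 6 in place of 12 differences in effect remained to be called, since fewer members were tested. Without 1 replicate in turn, the calls ranged from 3 to 5 in MKN1 cells (3 without replicate 2), from 6 to 8 in MKN7 cells, from 12 to 14 in NCI-N87 cells, from 2 to 3 for 24 h against 4 h, from 61 to 67 between untreated lines and from 8 to 14 for effects between lines. The PTGES3 call in NCI-N87 cells at 24 h was also lost without the filter and with the stricter one. Low counts limit HPGD in NCI-N87 cells, PTGS1 and PTGER2 in Hs746T cells.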
